A study of Mus musculus with 16 samples.

Results

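The 10 genes described here encode subunits of Polycomb repressive complex 2 (PRC2), 10 of the 19938 genes measured. They were taken by symbol, each with the probe set (the group of array probes for 1 transcript) of highest mean over all arrays, and all 10 had one. The core subunits are Ezh1, Ezh2, Eed, Suz12, Rbbp4 and Rbbp7 (6 genes), and the accessory subunits are Jarid2, Aebp2, Mtf2 and Phf19 (4 genes). RNA of 16 mouse samples was hybridised to 1 Affymetrix array each. There were 3 arrays each of secondary kidney tumors, kidney tumors, liver tumors, normal kidney and normal liver, and 1 of ES cells. Kidney tumors came from reprogrammable mice given doxycycline (Dox), the drug that switches on their reprogramming transgenes, at 4 weeks of age for 7 days and examined 7 days after withdrawal. Liver tumors were primary tumors of reprogrammable mice, and secondary kidney tumors were kidney tumors transplanted under the skin of immunodeficient mice. Normal kidney was of the same age, without tumor. Per the labels, the ES cells were 129xC57BL6 F1 and the tissues 129xC57BL6 F1 or of mixed background, and the tumors, taken from chimeric mice, may contain cells of the ICR host. The labels used here give neither the cells in which the transgenes are driven nor the number of animals.

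PRC2 places methyl groups on lysine 27 of histone H3, the H3K27me3 mark, and keeps developmental genes silent. Ezh2 or its homolog Ezh1 is the methyltransferase, Eed reads the mark and activates the enzyme, Suz12 is the scaffold, and Rbbp4 and Rbbp7 bind histones. Ezh2 is the form known from dividing and embryonic cells and Ezh1 that of many adult, resting tissues. The accessory subunits define variant complexes: Mtf2 and Phf19 are Polycomb-like proteins that bring PRC2 to unmethylated CpG islands, while Jarid2 and Aebp2 form the other variant.

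Promoter sequences of all 10 members were read from RefSeq (GRCm38.p6), as 300 bases from 250 before to 50 after an annotated start, 14 promoters in all. They were searched on both strands for the words TTTCCCGC, TTTCGCGC, TTTGCCGC and TTTGGCGC, which an E2F factor, a regulator of genes of the dividing cell, can bind, and for CCAAT, the word of the factor NF-Y. The promoters of Ezh2 and Ezh1, the enzymes whose levels moved apart, and of Suz12 and Phf19, which hold an E2F word, are shown with the words in capitals, 5′ to 3′ along the gene.

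Ezh2 promoter, chr6:47594981-47595280, minus strand: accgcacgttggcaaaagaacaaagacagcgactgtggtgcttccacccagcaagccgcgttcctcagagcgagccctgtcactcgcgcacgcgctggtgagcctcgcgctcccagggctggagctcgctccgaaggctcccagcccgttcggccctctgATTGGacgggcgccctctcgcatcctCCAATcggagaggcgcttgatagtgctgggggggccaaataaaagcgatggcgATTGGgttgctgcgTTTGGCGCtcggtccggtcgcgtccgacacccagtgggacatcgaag
Ezh1 promoter, chr11:101226414-101226713, minus strand: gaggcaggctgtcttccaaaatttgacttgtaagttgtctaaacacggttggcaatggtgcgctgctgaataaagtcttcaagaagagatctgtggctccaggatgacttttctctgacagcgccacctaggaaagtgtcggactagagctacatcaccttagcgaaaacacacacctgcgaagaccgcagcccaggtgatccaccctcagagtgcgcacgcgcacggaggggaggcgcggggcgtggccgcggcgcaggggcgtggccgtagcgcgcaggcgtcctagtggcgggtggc
Suz12 promoter, chr11:79992856-79993155, plus strand: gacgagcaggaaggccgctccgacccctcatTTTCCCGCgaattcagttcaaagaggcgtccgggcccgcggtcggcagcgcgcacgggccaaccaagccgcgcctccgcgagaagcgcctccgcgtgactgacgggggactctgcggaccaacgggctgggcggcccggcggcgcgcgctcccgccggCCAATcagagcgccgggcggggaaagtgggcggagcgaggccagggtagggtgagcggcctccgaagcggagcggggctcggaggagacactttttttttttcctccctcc
Phf19 promoter, chr2:34913927-34914226, minus strand: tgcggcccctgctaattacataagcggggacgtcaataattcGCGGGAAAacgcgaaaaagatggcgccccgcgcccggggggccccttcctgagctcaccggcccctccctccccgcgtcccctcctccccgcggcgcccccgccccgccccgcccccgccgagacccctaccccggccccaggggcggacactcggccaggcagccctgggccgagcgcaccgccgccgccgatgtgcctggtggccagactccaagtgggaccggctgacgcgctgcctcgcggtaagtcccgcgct

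The E2F word of Ezh2 began 3 bases downstream of the start, that of Suz12 219 bases upstream and that of Phf19, on the opposite strand, 208 bases upstream. These were 3 of the 14 promoters, and 2.26% of 32851 promoters of the same length held such a word. CCAAT was found in 9 promoters of 8 members, at 3 places in Ezh2, and in 37.4% of all promoters. The Ezh1 promoter held none of these words, and no E2F word overlapped a CCAAT. A match is a stretch of letters and was not tested for binding.

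Levels below are log2 of the deposited intensity, and changes are log2 differences with the standard error (SE) of a limma fit, where a gene was called at an adjusted p under 0.05 over all 19938 genes. Tissue markers matched the labels in normal organs: the mean level of 6 proximal tubule genes was 12.90 to 13.04 in normal kidney, and that of 5 hepatocyte genes 13.37 to 13.54 in normal liver. In the secondary kidney tumors the proximal tubule mean was 7.00 to 7.11, near the 6.96 of ES cells, while in kidney tumors it was 10.82 to 11.79. Liver tumors had a hepatocyte mean of 12.90 ± 0.12 (SD, n = 3). Normal liver array 1 had a proximal tubule mean of 9.17 and an adipocyte mean of 10.92, and normal kidney array 2 and secondary tumor array 1 adipocyte means of 10.70 and 10.44, against at most 7.88 in the other arrays. Xist, a noncoding RNA of the silenced X chromosome, was at 10.84 and 10.19 in kidney tumors 2 and 3 and at 10.45 and 11.35 in liver tumors 2 and 3, against 5.60 to 7.84 in the other 12 arrays. In bulk RNA, fewer cells of a type and less RNA per cell cannot be told apart.

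Ezh2 (probe set 10544501) was the member with the largest change in the kidney. Its level was 11.46, 11.38 and 11.49 in the secondary kidney tumors, 11.12, 11.61 and 11.78 in the kidney tumors, and 8.78, 9.20 and 9.23 in normal kidney. Every tumor array lay above every normal array, by more than the spread within any group. Ezh2 was higher by 2.43 ± 0.18 (5.39-fold, adjusted p 6.03e-07 in limma) in kidney tumors and by 2.38 ± 0.18 (5.19-fold, adjusted p 1.68e-07) in secondary tumors than in normal kidney. In the liver its level was 11.03, 11.51 and 11.20 in tumors, against 9.56, 9.81 and 10.01 in normal tissue, again without overlap. The difference was 1.45 ± 0.18 (2.74-fold, adjusted p 4.19e-05). The 3 tumor groups were within 0.26 of each other, and no pair of them was called: secondary minus primary kidney tumor was -0.06 (95% interval -0.45 to 0.34) and kidney minus liver tumor 0.26 (-0.14 to 0.65).

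Ezh1 (probe set 10391378) moved the other way in the kidney. It stood at 9.03, 8.94 and 8.71 in secondary tumors, 10.23, 9.41 and 9.26 in kidney tumors and 10.29, 10.51 and 10.24 in normal kidney. The secondary tumors lay below all arrays of the other 5 groups, whereas kidney tumor 1 stood beside the lowest normal kidney array. The change was -1.45 ± 0.20 (2.74-fold lower, adjusted p 3.32e-05 in limma) in secondary tumors and -0.72 ± 0.20 (1.64-fold lower, adjusted p 0.00971) in kidney tumors, both against normal kidney. The kidney tumor call rested on kidney tumors 2 and 3, the arrays with Xist signal: without them the change was -0.12 (adjusted p 0.649). It was also lost when array 3 alone was left out (adjusted p 0.0508) and in a fit of these 2 groups alone (0.0507). Secondary minus primary kidney tumor was -0.74 ± 0.20 for Ezh1 (adjusted p 0.0119), a call lost in a fit of those groups alone (0.0740) and without secondary tumor 3 (0.0521). Against kidney tumor 1 alone it was -1.33. In liver, Ezh1 was at 9.25, 9.16 and 9.34 in tumors, against 9.44, 9.15 and 9.10 in normal tissue, and the arrays overlapped. That difference was 0.02 ± 0.20 (95% interval -0.42 to 0.45, adjusted p 0.950).

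**Figure D1:**
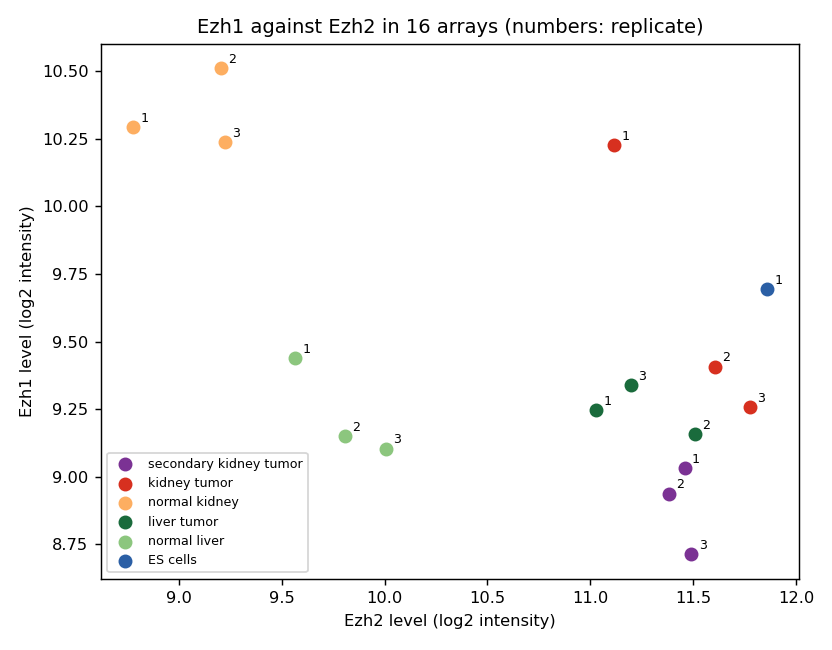
Level of Ezh1 (vertical axis) against Ezh2 (horizontal axis), both log2 intensity, in the 16 arrays, 1 point per array with its replicate number. Normal kidney lies at the upper left, secondary kidney tumors at the lower right, and kidney tumor 1 stands apart at high Ezh2 and high Ezh1.

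The difference between the 2 enzymes within each array brings these shifts together. Ezh2 minus Ezh1 ran from 2.43 to 2.78 in secondary kidney tumors, 0.89 to 2.52 in kidney tumors, and -1.52 to -1.01 in normal kidney. The sign differed between tumor and normal kidney, but as the probe sets differ in brightness only its change is read. The change was 3.83 in secondary and 3.15 in primary kidney tumors against normal kidney, and 0.68 between secondary and primary tumors. In liver the difference ran from 1.78 to 2.35 in tumors, against 0.13 to 0.90 in normal tissue, a change of 1.44. The exact permutation p, 2-sided, was 0.1 for each tumor against its normal tissue, the smallest that 3 arrays against 3 allow, and 0.3 for secondary against primary tumors (0.133 and 0.3 adjusted over the 4 comparisons). With the Xist-bearing tumor arrays left out, the kidney tumor change was 2.17 and the difference between secondary and primary tumors 1.66.

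Eed and Suz12 rose with Ezh2 in all 3 tumor groups, by less. Eed was at 9.40, 9.41 and 9.40 in secondary tumors, 9.37, 9.81 and 9.93 in kidney tumors and 8.72, 8.63 and 8.57 in normal kidney. It was at 9.54, 9.60 and 9.72 in liver tumors, against 8.74, 8.78 and 9.15 in normal liver. All tumor arrays were above those of the normal organ. The changes were 0.76 ± 0.14 in secondary tumors (adjusted p 0.000278 in limma), 1.07 ± 0.14 in kidney tumors (3.08e-05) and 0.72 ± 0.14 in liver tumors (0.000809). The other Eed probe set, dim at a mean of 5.85, disagreed: its change was -0.27 ± 0.10 in secondary tumors (adjusted p 0.0272) and -0.26 ± 0.10 in liver tumors (0.0367). With both probe sets averaged, Eed was 0.23 higher in liver tumors (adjusted p 0.0773).

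Suz12 had 10.77 to 10.81 in secondary tumors, 10.51 to 10.79 in kidney tumors and 10.22 to 10.45 in normal kidney, and 10.51 to 10.83 in liver tumors, against 10.16 to 10.34 in normal liver. Each tumor group lay above its normal organ without overlap, though by little, while the tumor groups overlapped each other. Its changes of 0.44 ± 0.10, 0.32 ± 0.10 and 0.40 ± 0.10 in secondary, kidney and liver tumors passed (adjusted p 0.00214, 0.0181 and 0.00617 in limma). With each array centred on its median they were 0.21, 0.19 and 0.20 and did not pass (0.0722, 0.116 and 0.0975). Without the arrays with Xist signal the change was 0.15 in kidney tumors (0.466) and 0.25 in liver tumors (0.176). Leaving out kidney tumor 2 or 3 or normal kidney 2 also ended the kidney tumor call (adjusted p 0.0656, 0.0765 and 0.0768).

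The histone-binding subunits Rbbp4 and Rbbp7, which also serve in other chromatin complexes, differed in their calls. Rbbp7, the only member on the X chromosome, was at 11.12 to 11.18 in secondary tumors, 11.20 to 11.40 in kidney tumors and 10.46 to 10.87 in normal kidney, without overlap. It was 0.52 ± 0.16 higher in secondary tumors (adjusted p 0.0125 in limma) and 0.67 ± 0.16 higher in kidney tumors (0.00365). Without the arrays with Xist signal the change in kidney tumors was 0.57 and not called (0.109). The call in secondary tumors was lost without normal kidney 2 (0.0525) and with arrays centred (0.29, adjusted p 0.0710). In liver tumors Rbbp7 was 10.71, 11.49 and 11.15, against 10.68, 10.52 and 10.74 in normal liver. Liver tumor 1 lay among the normal arrays, the change was 0.47 ± 0.16 (0.0284), and without liver tumors 2 and 3 it was 0.06. The call in liver tumors was also lost with arrays centred (adjusted p 0.103), in a fit of the liver groups alone (0.102) and without liver tumor 2 (0.129). Its other probe set gave 0.73 in kidney and 0.50 in liver tumors. Rbbp4, the brightest probe set of the 10, was at 11.95 to 12.01 in secondary tumors, 11.80 to 12.21 in kidney tumors and 11.58 to 11.89 in normal kidney. Its changes of 0.23 ± 0.12, 0.29 ± 0.12 and, in liver tumors, 0.15 ± 0.12 did not pass (adjusted p 0.0882, 0.0523 and 0.273), but with quantile normalization they were 0.64, 0.64 and 0.46 and passed (0.000384, 0.000629 and 0.00715).

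**Figure D2:**
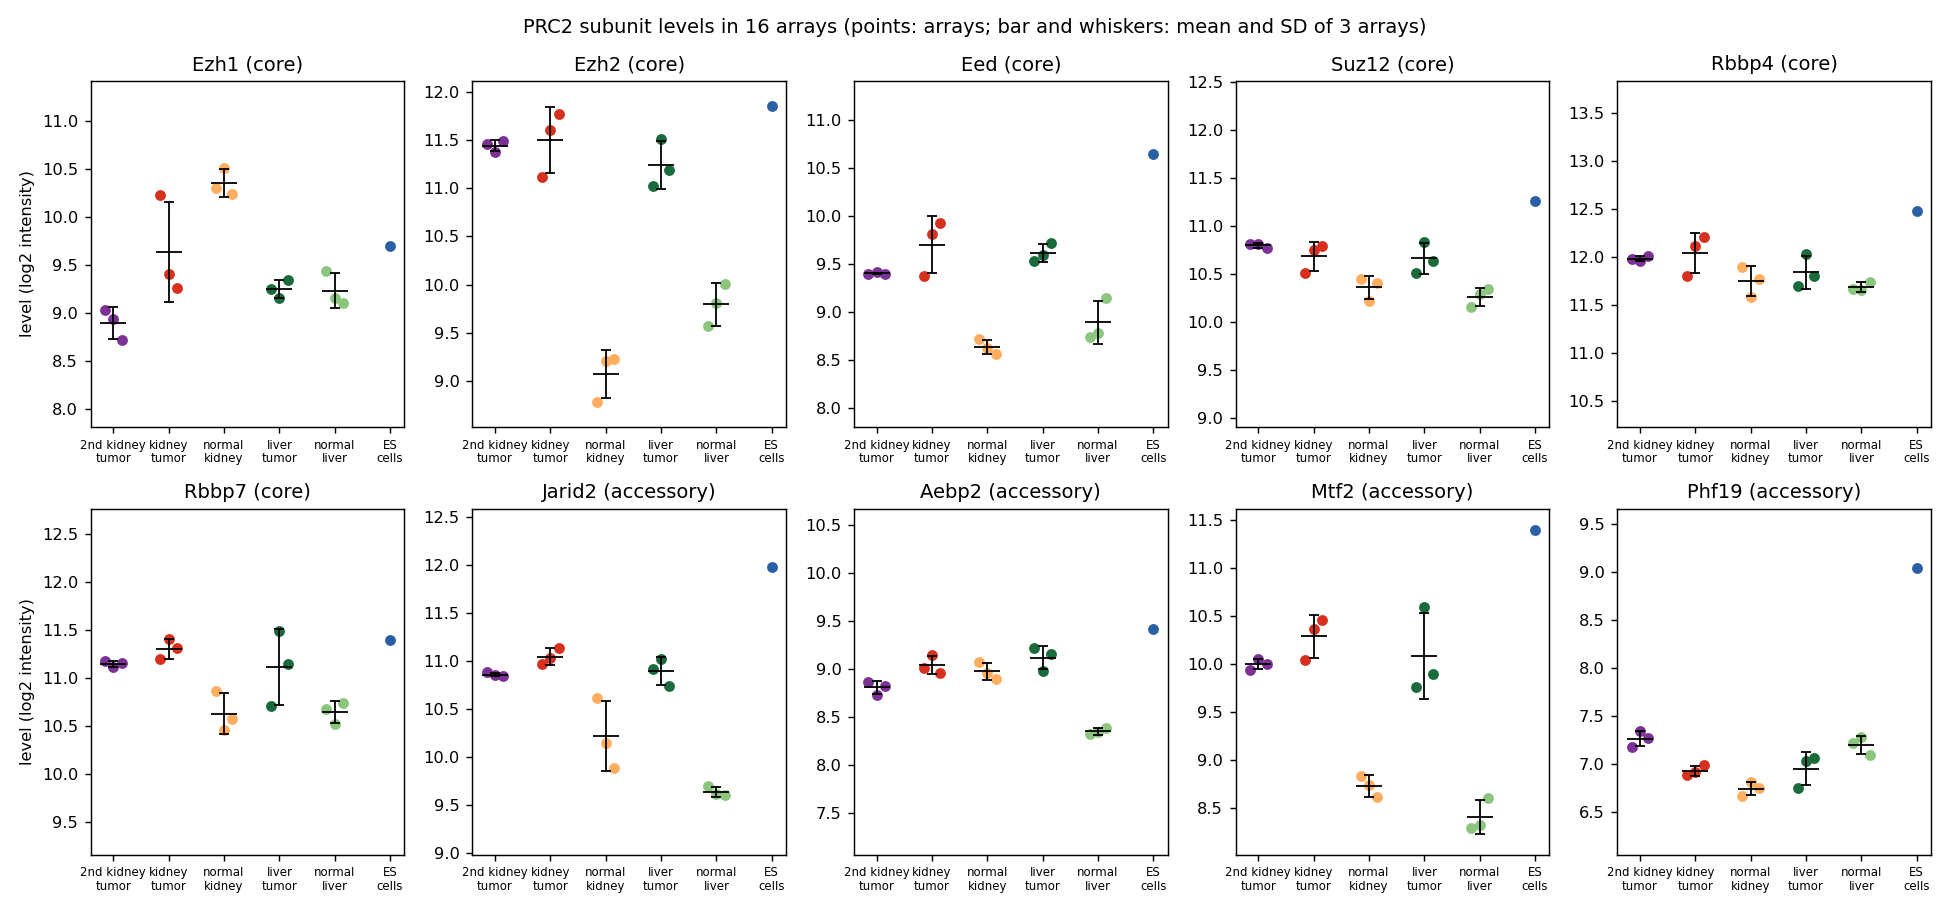
Level (log2 intensity) of each PRC2 subunit by group, 1 point per array, with the mean and SD of 3 arrays as bar and whiskers. Each panel spans the same number of log2 units around its own middle. Ezh2, Eed, Jarid2 and Mtf2 are higher in all tumor arrays than in the normal organ, and the ES cell array is highest in 8 of the 10 panels.

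Among the accessory subunits Mtf2 changed most. It was at 9.94 to 10.05 in secondary tumors, 10.03, 10.36 and 10.46 in kidney tumors and 8.83, 8.74 and 8.61 in normal kidney. In liver it was at 9.75, 10.59 and 9.89 in tumors, against 8.29, 8.32 and 8.60 in normal tissue. Tumor and normal arrays were over 1 log2 unit apart. Mtf2 rose by 1.27 ± 0.18 in secondary tumors (2.41-fold, adjusted p 5.00e-05 in limma), 1.56 ± 0.18 in kidney tumors (2.95-fold, 1.70e-05) and 1.68 ± 0.18 in liver tumors (3.20-fold, 1.39e-05).

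Jarid2, a catalytically inactive relative of histone demethylases, was at 10.88, 10.85 and 10.84 in secondary tumors, 10.97, 11.03 and 11.14 in kidney tumors and 10.62, 10.15 and 9.89 in normal kidney. Normal kidney was spread more widely than the tumors but did not reach them. The changes were 0.64 ± 0.14 (adjusted p 0.00148 in limma) in secondary and 0.83 ± 0.14 (0.000317) in kidney tumors. In liver Jarid2 was at 10.92, 11.03 and 10.74 in tumors, against 9.70, 9.62 and 9.60 in normal tissue, a change of 1.26 ± 0.14 (2.39-fold, 1.74e-05).

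Aebp2, a zinc finger cofactor, changed in the liver. It was at 9.22, 8.98 and 9.15 in liver tumors, against 8.32, 8.34 and 8.39 in normal liver, a rise of 0.77 ± 0.08 (adjusted p 1.09e-05 in limma). In the kidney it was at 8.86, 8.73 and 8.83 in secondary tumors, 9.01, 9.14 and 8.96 in kidney tumors and 9.07, 8.96 and 8.89 in normal kidney. The last 2 groups overlapped (0.06 ± 0.08, 0.535), whereas secondary tumors lay below both. Secondary minus primary kidney tumor was -0.23 ± 0.08 (0.0439), a call lost with the replicate number as a block (0.0568) and when any one of kidney tumors 1 and 2 or of the secondary tumors was left out. It was called in 4 of 15 alternatives. Secondary tumor minus normal kidney was -0.17 ± 0.08 (0.0864). With quantile normalization or centring the last difference was -0.28 (0.0364) and -0.39 (0.00410).

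Phf19 was the dimmest member, at the 27.2 to 38.8 percentile of genes in the tissue arrays. It was at 7.18 to 7.34 in secondary tumors, 6.89 to 6.99 in kidney tumors and 6.67 to 6.81 in normal kidney, and at 6.75 to 7.07 in liver tumors, against 7.09 to 7.28 in normal liver. The kidney groups did not overlap, and liver tumors lay below normal liver. Phf19 rose by 0.52 ± 0.09 in secondary tumors against normal kidney (adjusted p 0.000221 in limma) and by 0.34 ± 0.09 against kidney tumors (0.0108). The second call was lost without the arrays with Xist signal (0.0615), with quantile normalization (0.23, adjusted p 0.0963) and with arrays centred (0.24, 0.0510). In kidney tumors the change was 0.19 ± 0.09 (0.102). In liver tumors it fell by 0.25 ± 0.09 (0.0367), and that call was lost without liver tumor 1 (-0.15, 0.142), without normal liver 1 (0.0836) or 2 (0.123) and in a fit of the liver groups alone (0.134). It was called in 7 of 14 alternatives.

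Counted together, 6 members rose and 1 fell in kidney tumors against normal kidney, where 49.8% of all genes were called (21.7% higher, 28.1% lower). The median change over the 10 members was 0.50 and that over all genes -0.11. In secondary tumors against normal kidney 7 rose and 1 fell, where 68.6% of all genes were called (29.9% higher, 38.7% lower), with medians of 0.52 for the members and -0.12 for all genes. In liver tumors 7 rose and 1 fell, where 52.3% of all genes were called (21.5% higher, 30.7% lower), with medians of 0.60 and -0.13. Between secondary and primary kidney tumors 1 was higher and 2 were lower, where 36% of all genes were called (18.5% higher, 17.4% lower), with medians of -0.17 and -0.07. Of the core subunits 4 of 6 rose in each tumor group against its normal organ, and of the 4 accessory subunits 2 rose in kidney tumors, 3 in secondary tumors and 3 in liver tumors. Among the core calls, Rbbp7 in liver tumors was called in 8 of 15 alternatives and Suz12 in kidney tumors in 10 of 15. Without the kidney tumor arrays with Xist signal 4 members were called in kidney tumors, namely Ezh2, Eed, Jarid2 and Mtf2, where 28.7% of all genes were called. Both kidney comparisons share the normal kidney arrays.

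The same members were counted by whether the arrays of both groups overlapped. In kidney tumors 7 members lay wholly above and 1 wholly below normal kidney, against 25.3% and 39.3% of all genes. In secondary tumors 8 lay above and 2 below normal kidney, against 33.3% and 46.2% of all genes, and every member was thus separated. In liver tumors 6 lay above and 1 below normal liver, against 22% and 37.2%. Secondary tumors lay above primary kidney tumors in 1 and below in 4, against 23.6% and 32.6%, and above liver tumors in 1 and below in 3, against 26% and 27.2%. Between kidney and liver tumors none was separated, against 12.8% above and 9.28% below, and between normal kidney and normal liver 4 lay above and 3 below, against 28.2% in each direction.

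**Figure D3:**
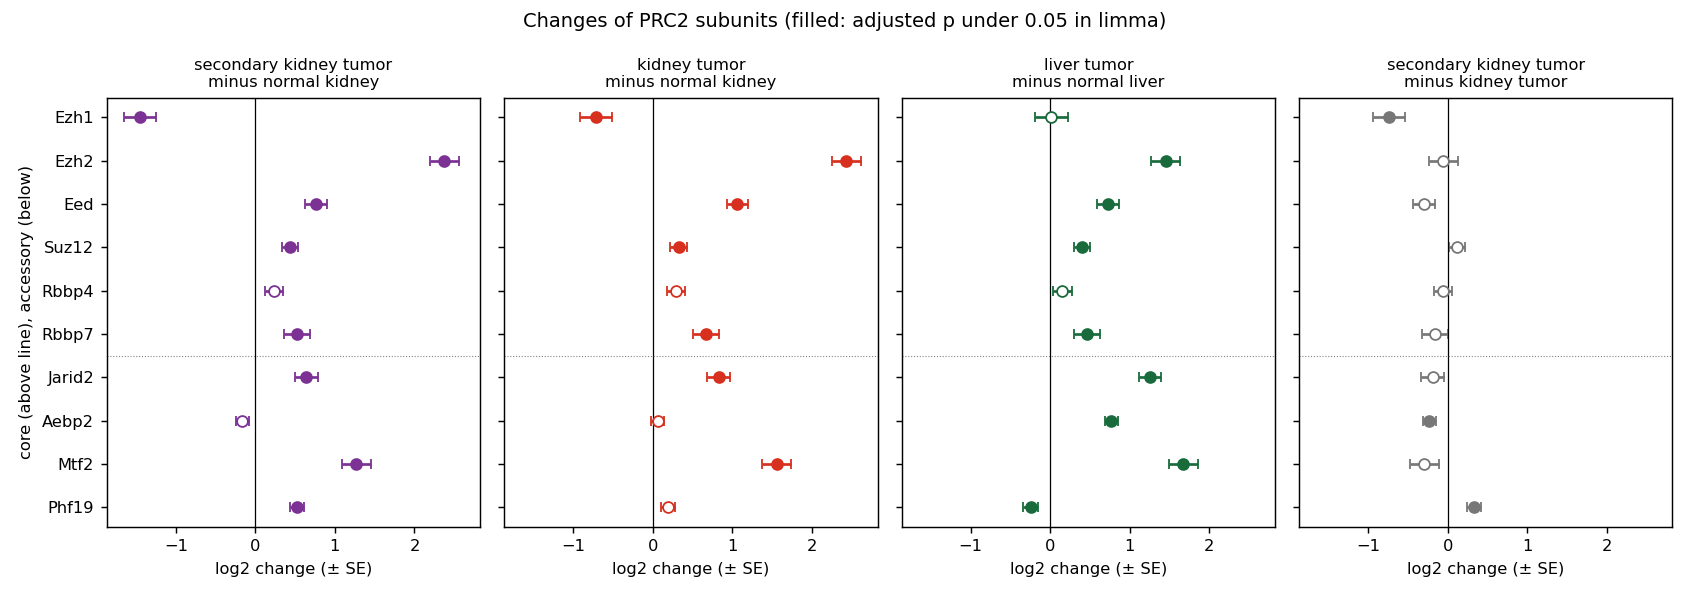
Log2 change with SE (horizontal axis) of each subunit in 4 comparisons, core subunits above the dotted line and accessory subunits below; filled points passed at an adjusted p under 0.05 in limma. Ezh2 and Mtf2 lie farthest to the right in the 3 comparisons with normal tissue, and Ezh1 lies left of 0 in the kidney comparisons.

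The normal organs differed in 5 members, where 37.8% of all genes were called (21.4% higher, 16.4% lower in kidney). Normal kidney was higher than normal liver in Ezh1 by 1.12 ± 0.20 (adjusted p 0.000632 in limma), in Jarid2 by 0.58 ± 0.14 (0.00560) and in Aebp2 by 0.62 ± 0.08 (4.31e-05). For Ezh2 kidney minus liver was -0.72 ± 0.18 (0.00694) and for Phf19 -0.45 ± 0.09 (0.00133). Between kidney and liver tumors no member was called in limma, where 13% of all genes were (7.06% higher, 5.9% lower). At an unadjusted p under 0.05 the count was also 0. The widest 95% interval of these differences was that of Ezh1, -0.05 to 0.82. Secondary kidney tumor minus liver tumor was -0.31 ± 0.08 for Aebp2 (0.00791) and 0.32 ± 0.09 for Phf19 (0.0131), where 42.7% of all genes were called (23% higher, 19.6% lower). The Phf19 call was lost with quantile normalization (0.21, adjusted p 0.108), with arrays centred (0.20, 0.0820), in a fit of these groups alone (0.0724) and without liver tumor 1 (0.0550) or secondary tumor 2 (0.0562).

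The single ES cell array was set beside the tissues without a test. It had the highest level of all 16 arrays for 8 of the 10 members, against 18.25% of all genes; the exceptions were Ezh1, at 9.69 and below normal kidney and kidney tumor 1, and Rbbp7, at 11.40 and below kidney tumor 2 and liver tumor 2. ES cells were at 11.86 for Ezh2, 11.39 for Mtf2, 11.98 for Jarid2, 10.65 for Eed and 9.04 for Phf19. The ES cell array had a fibroblast marker mean of 9.68, against 8.59 in normal kidney and 9.95 in normal liver. Whether that sample held other cells was not tested. Kidney tumors had covered 87.9% of the log2 distance between normal kidney and ES cells for Rbbp7, 87.1% for Ezh2, 58.4% for Mtf2, 53.0% for Eed, 47.0% for Jarid2, 40.1% for Rbbp4, 36.1% for Suz12 and 8.14% for Phf19. Secondary tumors had covered 85.1% for Ezh2, 67.7% for Rbbp7, 48.8% for Suz12, 47.5% for Mtf2, 38.1% for Eed, 36.4% for Jarid2, 32.2% for Rbbp4 and 22.7% for Phf19. In liver tumors the share was 71.9% for Aebp2, 70.2% for Ezh2, 62.3% for Rbbp7, 56.0% for Mtf2, 53.7% for Jarid2, 41.3% for Eed, 40.03% for Suz12, 19.5% for Rbbp4 and -13.3% for Phf19, which lay farther from ES cells than normal liver did. Ezh2 and Rbbp7 had covered over 60% in each tumor group. The Rbbp7 change in liver tumors was only 0.06 without the arrays with Xist signal, where ES cells lay 0.75 above normal liver. The Rbbp4 changes were not called in the main fit. Among the members with a share Phf19 had the smallest in each tumor group. Ezh1, and Aebp2 in the kidney, had no share. Aebp2 changed by -0.17 in secondary tumors, away from ES cells.

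**Figure D4:**
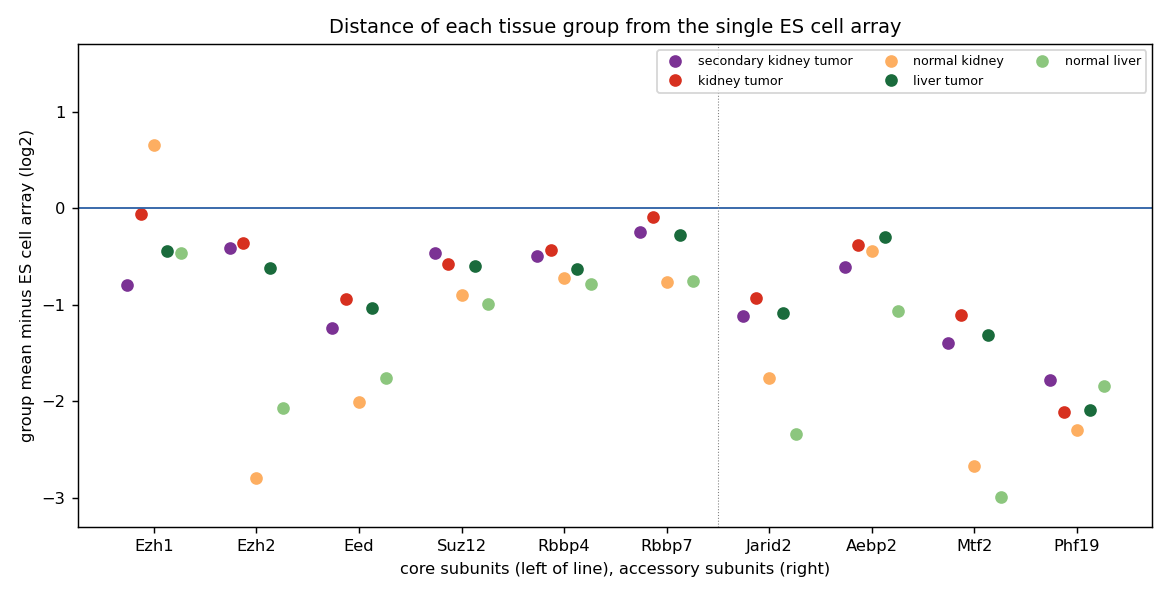
Group mean minus the ES cell array (log2, vertical axis) for each subunit, core subunits left of the dotted line; the horizontal line at 0 is the ES cell array. Tumor means of Rbbp7 lie between -0.28 and -0.09, those of Ezh2 between -0.62 and -0.36, those of Suz12 and Rbbp4 between -0.63 and -0.44 and those of Phf19 between -2.11 and -1.78.

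The order of the groups was read with the spread of the arrays. For Ezh2 it was ES cells, kidney tumor, secondary kidney tumor, liver tumor, normal liver and normal kidney, and the 3 tumor groups overlapped in that order. For Mtf2 and Jarid2 it was ES cells, kidney, liver and secondary kidney tumor, normal kidney and normal liver, with the tumors again overlapping. For Eed it was the same but for normal liver above normal kidney, with kidney and liver tumors overlapping and secondary tumors below liver tumors. Ezh1 ran from normal kidney through ES cells, kidney tumor, liver tumor and normal liver to secondary tumors, and from ES cells to normal liver each neighbour overlapped the next. Phf19 ran from ES cells through secondary tumor, normal liver, liver tumor and kidney tumor to normal kidney, where secondary tumor overlapped normal liver and liver tumor overlapped kidney tumor. Suz12, Rbbp4 and Rbbp7 had ES cells, then the 3 tumor groups, then the normal organs, which overlapped each other. Of these, Rbbp7 in ES cells also overlapped kidney tumors, and Rbbp7 in liver tumors overlapped normal liver. Rbbp4 in liver tumors overlapped normal kidney, with means 0.09 apart against a pooled SD of 0.16. Aebp2 ran from ES cells through liver tumor, kidney tumor and normal kidney, which overlapped in that order, to secondary tumor and normal liver.

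The tumor effect was set against that of the other organ with an interaction term, where 16.8% of all genes were called (7.54% higher, 9.26% lower in the kidney effect). The kidney effect on Ezh2 exceeded the liver effect by 0.98 ± 0.26 (adjusted p 0.0209 in limma). This call was lost without the kidney tumor arrays with Xist signal (0.60, adjusted p 0.241) and when normal kidney 1 (0.0535), kidney tumor 2 (0.0518) or 3 (0.0543) or normal liver 3 (0.0564) was left out. For Aebp2 the kidney effect minus the liver effect was -0.71 ± 0.12 (0.00128), which passed in all 23 alternatives tried. For Phf19 the difference was 0.43 ± 0.13 (0.0347), called in 11 of 22 alternatives. The proliferation genes below showed a larger kidney effect as well, in 17 of 17, by a median of 2.34; their part in the Ezh2 difference was not tested.

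Proliferation genes moved with Ezh2 in these arrays. All 17 measured of 18 listed rose in kidney tumors, against 21.7% of all genes (list median 3.45, all genes -0.11). Bub1, a mitotic checkpoint kinase, rose by 5.16 ± 0.29 there and Top2a, a DNA topoisomerase, by 4.70 ± 0.27. All 17 also rose in secondary tumors, against 29.9% of all genes (list median 2.91). In liver tumors all but Aurka rose, against 21.5% of all genes (16 genes, list median 1.12). Their summed intensity was 33901 to 36254 in secondary tumors, 30325 to 49723 in kidney tumors and 4808 to 5244 in normal kidney, and 29985 to 41772 in liver tumors, against 12876 to 21419 in normal liver. Their mean level per array was 10.69 in kidney tumor 1 and 11.30 and 11.43 in kidney tumors 2 and 3, the order of Ezh2 in those arrays. Eed, Suz12, Rbbp4, Jarid2, Mtf2 and Phf19 had that order too. The share of all genes with that order was not computed, so the order is not read as a result about the members. The arrays of liver tumors and of normal kidney also had the same order in this mean and in Ezh2. Those of secondary tumors and normal liver did not: among secondary tumors the mean was highest in array 1 (10.90) and Ezh2 in array 3 (11.49). Normal kidney lay below normal liver both in this mean (7.58 to 7.78 against 9.35 to 10.08) and in Ezh2. Mtf2 did not share that order: it was at 8.61 to 8.83 in normal kidney and at 8.29 to 8.60 in normal liver. That difference of 0.32 ± 0.18 was not called in limma, and it was called in 2 of 14 alternatives.

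**Figure D5:**
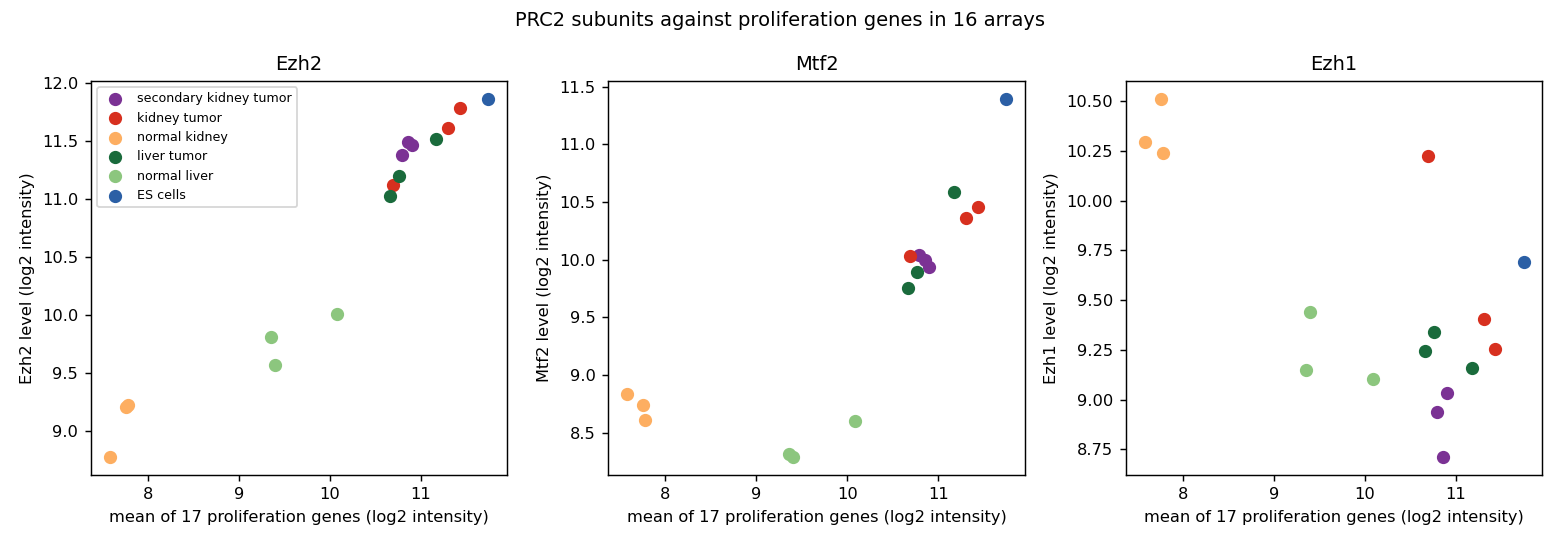
Level of Ezh2, Mtf2 and Ezh1 (vertical axes) against the mean of 17 proliferation genes (horizontal axis), all log2 intensity, in the 16 arrays. Ezh2 is lowest in normal kidney, higher in normal liver and highest in tumors and ES cells, and so is the proliferation mean, which differs more between normal kidney and normal liver (7.71 and 9.61) than Ezh2 does (9.07 and 9.79). Normal kidney lies slightly above normal liver in Mtf2 at a lower proliferation mean, and Ezh1 shows no single line.

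Other genes of the pathway were described by lists. Of 8 E2F factors, 6 rose in kidney tumors (median 1.23), 6 in secondary tumors (1.07) and 6 in liver tumors (0.59), where E2f2 fell. The repressor E2f8 and the activator E2f3 led in kidney tumors, with 2.94 ± 0.24 and 2.05 ± 0.18. E2f5 (1.56 ± 0.17) and E2f3 (1.40 ± 0.18) led in liver tumors, and E2f2 changed by -0.89 ± 0.16 there. Among 7 further partners and antagonists of PRC2, 3 rose and 1 fell in kidney tumors, where 21.7% of all genes were called higher and 28.1% lower. The H3K27 demethylase Kdm6b rose by 0.91 ± 0.11 and Epop, a partner of the Polycomb-like complex, by 0.71 ± 0.11, while Phf1, the third Polycomb-like protein, fell by 0.85 ± 0.14. In secondary tumors 3 rose and 1 fell, against 29.9% and 38.7% of all genes, led by Kdm6b (0.87 ± 0.11) and Lcorl (0.77 ± 0.14), with Phf1 changed by -0.75 ± 0.14. In liver tumors 2 rose and 1 fell, near the 21.5% and below the 30.7% of all genes. The former were Kdm6b, higher by 0.98 ± 0.11, and Kdm6a, also a demethylase of that mark, higher by 0.77 ± 0.11. Ezhip, an inhibitor of PRC2, fell by 0.50 ± 0.14. It was dim in both groups, at 6.49 to 6.71 in liver tumors and 7.01 to 7.24 in normal liver. Crebbp and Ep300, which acetylate the same lysine, rose in all 3 tumor groups, by 0.49 ± 0.09 and 0.39 ± 0.08 in kidney tumors.

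Of 20 developmental genes known as PRC2 targets in ES cells, 14 rose and none fell in kidney tumors, against 21.7% higher and 28.1% lower over all genes (median 0.93 against -0.11 over all genes). Bmp2, a growth factor gene, rose by 2.64 ± 0.27 and Gata4, an endoderm and heart factor, by 2.49 ± 0.29. The mean level of the 20 genes was 7.61 in the ES cell array, against 7.10 in normal kidney and 7.67 in normal liver. In liver tumors 10 rose, against 21.5% of all genes (median 0.59), led by Pax6 (1.73 ± 0.25) and Tbx5 (1.38 ± 0.44), which act in eye and limb development. Tbx5 was at 6.43, 8.90 and 7.67 in liver tumors, against 6.46, 6.19 and 6.21 in normal liver, so that liver tumor 1 lay among the normal arrays, and without liver tumor 2 the change was 0.77. In secondary tumors 9 rose, against 29.9% of all genes (median 0.49), led by Olig2 (2.62 ± 0.21) and Foxa2 (2.24 ± 0.22). In ES cells Olig2 was at 9.86, above every tissue array, and Foxa2 at 6.92, below every tissue array. Cdx2 fell by 0.37 ± 0.12 in secondary tumors. It was dim in both groups, at 6.38 to 6.51 in secondary tumors and 6.60 to 6.99 in normal kidney. Against primary kidney tumors, secondary tumors were lower in 7, Gata4 by 1.99 ± 0.29 and Hand1 by 1.83 ± 0.38, and higher in 3, led by Olig2 (1.99 ± 0.21), where 17.4% of all genes were called lower and 18.5% higher.

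Markers of other cells were read beside the members, and not all moved with them. Of 6 pluripotent cell markers, 4 rose in each tumor group: Pou5f1, Nanog, Sox2 and Lin28a. Their list medians were 2.00 in secondary, 2.99 in kidney and 3.08 in liver tumors, and Sox2 rose by 5.33 ± 0.24, 4.46 ± 0.24 and 4.23 ± 0.24 in these groups. Zfp42 and Dppa4 were not called higher in any tumor group, and Dppa4 fell by 0.53 ± 0.12 in liver tumors. Dppa4 was dim in both liver groups, at 6.52 to 6.73 in tumors and 7.11 to 7.22 in normal liver, against 10.42 in ES cells. The mean level of the 6 markers was 8.43 to 8.91 in secondary tumors, 8.92 to 9.23 in kidney tumors and 6.63 to 6.76 in normal kidney, and 8.48 to 9.15 in liver tumors, against 6.64 to 6.72 in normal liver, with 11.13 in ES cells. Their summed intensity was 4879 to 5728 in secondary tumors, 4899 to 7423 in kidney tumors and 616 to 690 in normal kidney, and 3491 to 6277 in liver tumors, against 622 to 674 in normal liver. Macrophage marker means were 9.58 to 10.42 in secondary tumors, 10.08 to 10.37 in kidney tumors and 8.37 to 8.57 in normal kidney, and 10.09 to 10.77 in liver tumors, against 9.06 to 9.18 in normal liver. Of 5 macrophage markers, 4 rose and 1 fell in kidney tumors, against 21.7% and 28.1% of all genes. The latter was Csf1r, at 9.05, 9.63 and 9.26, against 10.29, 9.72 and 10.07 in normal kidney. In secondary and liver tumors 3 rose, against 29.9% and 21.5% of all genes, and Csf1r and Cd14 were not called in secondary tumors. Fibroblast means were 11.40 to 11.82 in secondary tumors, 8.71 to 9.77 in kidney tumors and 8.44 to 8.82 in normal kidney, with 9.68 in ES cells. In liver they were 9.45 to 10.61 in tumors, against 9.63 to 10.45 in normal tissue. None of the 5 fibroblast markers was called there, where 52.3% of all genes were. Of 4 endothelial markers none rose in any tumor group. In kidney tumors 1 fell and in secondary tumors 3 fell, against 28.1% and 38.7% of all genes. The part of pluripotent cells, macrophages, fibroblasts and endothelial cells in the members' changes was not tested.

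Likeness of pattern was the root mean square difference between the centred means of the 6 groups, searched over 17446 genes. The genes nearest to Ezh2 were H2bc14 (0.047 log2 units), Skp2 (0.058), Tacc3 (0.128), Pimreg (0.132) and Psip1 (0.133). H2bc14 encodes a replication-dependent H2B histone, whose near-identical copies a probe set can mix; Skp2 is a ubiquitin ligase subunit of the cell cycle and Tacc3 a spindle protein. Those nearest to Ezh1 were Atp6v1f (0.085) and Atp6v1c1 (0.121), both subunits of the vacuolar proton pump, with Malt1 (0.098), Cdc42bpg (0.109) and Pptc7 (0.121). Among the members, Suz12 and Rbbp4 were most alike (0.0999) and Ezh1 and Ezh2 least (1.31).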

How the data were processed

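The RNeasy Plus Mini kit was used for extraction and the WT Terminal Labeling kit for labelling, per the labels' protocols. The authors deposited linear intensities for each probe set, between 20.7 and 20262, with array medians of 191 to 226. How they corrected background and normalized is not given in the sources used here, and per the submitters' processing notes the genome build was mm9. No detection p was used, and the number of arrays limits the precision.

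Intensities were put on the log2 scale as deposited. The 2016 platform annotation of the 28856 probe sets gave 1 symbol to 21789, several to 1621 and none to 5446, and 21698 were matched to RefSeq by gene ID. For the 999 genes with several probe sets that of highest mean was kept, which left 19938 genes. Tests used limma 3.58.1 (R 4.3.3) on all 16 arrays, with a coefficient for each group (10 residual and 2.66 prior degrees of freedom), empirical Bayes moderation and Benjamini-Hochberg adjustment over all genes, 2-sided. The steps were tested on simulated data. Since separate animals are not stated for the replicates, p-values reflect only the spread among these samples, possibly technical. No pair of arrays of a group shared more than 7 values. ES cells, with 1 array, entered no test.

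Members and gene lists were chosen with earlier results of these data known. Values outside the 10 members are named for the 2 called genes of largest change in each list, those against its direction, and the 5 genes nearest in pattern to Ezh2 and Ezh1, without predicted genes and receptor families. Share of distance to ES cells was computed where ES cells lay at least 0.5 above normal tissue. Ccnb1 and Serpina1a had no usable probe set. Promoters came from RefSeq (GRCm38.p6). Alternatives were quantile normalization, median centring, fits of only the groups compared, leaving out the dimmest 33.3% of genes, averaged probe sets, an intensity trend with robust moderation, array weights, the replicate number as a block, leaving out each array, and leaving out the arrays with Xist signal. The sorted cells and methylation data of the series' design were not analysed here.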

Additional observations from a re-analysis of the deposited data

Results flagged for a closer look

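The tumor effect in kidney and that in liver differed for 3 members by the interaction test in limma. The kidney effect minus the liver effect was 0.98 ± 0.26 (SE) for Ezh2 (adjusted p 0.0209), with the tumors above the normal tissue in both organs. It was -0.71 ± 0.12 for Aebp2 (adjusted p 0.00128), where kidney tumors and normal kidney overlapped. It was 0.43 ± 0.13 for Phf19 (adjusted p 0.0347), where all kidney tumor arrays lay above and all liver tumor arrays below those of the normal organ. For Ezh2, Aebp2 and Phf19, kidney minus liver tumor was 0.26, -0.08 and -0.02, and none was called. Normal kidney minus normal liver was -0.72, 0.62 and -0.45, and all 3 were called. Most of each interaction thus lay between the normal organs. The Ezh2 and Phf19 calls were lost in several alternatives, as described above.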

How the results depend on the processing

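No member's called change reversed its direction under any alternative tried. The dim Eed probe set by itself was not among these alternatives. It was called lower in secondary and liver tumors, as given above. The directions of Ezh2, Eed, Jarid2 and Mtf2 against normal tissue, and of Ezh1 in secondary tumors, were called in all alternatives, except Eed in liver tumors with averaged probe sets. Among single members, 1172 of the recomputed values kept their side of the threshold, 67 lost a call and 33 gained one, and of the recomputed counts and within-array changes 143 were close to those reported and 24 were not. Centring moved the median of all genes to -0.24 in kidney tumors, -0.35 in secondary tumors and -0.33 in liver tumors, and the share of higher calls to 30.8%, 29.8% and 23.2%, in place of 43.6%, 43.6% and 41.2%. It moved that share to 38.9% in secondary against primary tumors and 40.5% in secondary against liver tumors, in place of 51.5% and 54.0%.

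The count of members called between secondary and primary kidney tumors was 3 as reported and 1 with quantile normalization, without the dimmest genes, in a fit of those groups alone and without the arrays with Xist signal, and 5 with array weights. Between secondary kidney and liver tumors it was 1 with quantile normalization, centring or without the dimmest genes, and 4 with array weights. Without the dimmest genes Phf19 was itself not tested, which lowered both counts by 1. Without the kidney tumor arrays with Xist signal it was 4 in kidney tumors, 1 for the difference between organs (Aebp2) and 1 between kidney and liver tumors (Ezh1, 0.98, adjusted p 0.00271). Further settings were chosen after seeing the data: without the liver tumor arrays with Xist signal, or without those of both organs, the last count was 1 each time (Rbbp7, then Ezh1). There the within-array change of Ezh2 against Ezh1 was 2.17 in kidney tumors and 1.66 between secondary and primary tumors. A lone array in a group is assumed to vary like the others. Leaving out single arrays for Tbx5 and the other listed genes was also chosen after seeing the data. The share of all genes called also changes with the setting and is not given beside the counts in this section. Shifts of these counts are therefore not read as a result about the members.

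Leaving out 1 array gave 5 to 8 members in kidney tumors, 7 to 8 in secondary tumors, 1 to 3 between them, 6 to 8 in liver tumors, 1 to 5 between organs (1 without normal kidney 1 or kidney tumor 2 or 3, 5 without kidney tumor 1), 0 to 1 between kidney and liver tumors (1 without liver tumor 2), 1 to 2 between secondary and liver tumors (1 without liver tumor 1 or secondary tumor 2) and 5 between normal organs. The within-array change ran from 2.82 to 3.64, 3.71 to 3.96, 0.19 to 1.01 and 1.22 to 1.61 for kidney tumor, secondary tumor, secondary against primary, and liver tumor.

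With the replicate number as a block the counts were 7 in kidney tumors, 8 in secondary tumors, 2 between them and 8 in liver tumors. Same-numbered arrays did not deviate together throughout: their correlations were 0.06, 0.05 and 0.06 between normal kidney and kidney tumors, 0.27, 0.25 and 0.00 between kidney and liver tumors, and -0.16, -0.28 and -0.11 between normal liver and liver tumors. The block ended the Aebp2 call between secondary and primary kidney tumors and no other call of a member. Array signal over background was not measured, which among the members limits Phf19 most. It also limits the falls of the dim genes Dppa4, Ezhip and Cdx2.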
